A study of Homo sapiens with 9 samples.

Results

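The 10 genes described here encode the transcriptional coactivators YAP1 and WWTR1, the DNA-binding factors TEAD1 to TEAD4, and the upstream components LATS1, STK3, STK4 and NF2 of the Hippo pathway. They were taken by gene name from the deposited expression tables, where each had 1 row among 58735 genes. The measurements are RNA sequencing of PaTu 8988t, an established human pancreatic adenocarcinoma line, in 9 libraries. According to the labels, cells were treated with extracellular matrix that contained the CPXM2 mutant R213A, a matrix that contained wild type CPXM2, or a control matrix, with 3 libraries each. CPXM2 is a secreted protein of the carboxypeptidase family that has a discoidin domain. All 3 groups share the cell line and the medium, and nothing in the labels says whether replicates were separate cultures, so p-values measure no more than how far these libraries lie apart, and that distance may be technical.

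In the Hippo pathway, the kinases MST2 (encoded by STK3) and MST1 (encoded by STK4) phosphorylate and activate the LATS kinases, which in turn phosphorylate YAP1 and its relative TAZ (encoded by WWTR1) and hold them in the cytoplasm. Unphosphorylated YAP1 and TAZ enter the nucleus and activate transcription through TEAD factors, and NF2 (merlin) recruits LATS kinases to the membrane. Cells on stiff matrix are known for nuclear YAP1 and TAZ, a regulation of protein location and phosphorylation that transcript levels do not measure.

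The authors deposited FPKM, reads scaled to gene length and library size, in separate tables. The 4-library table holds R213A 1, R213A 3, wild type 1 and control 1, and the 5-library table holds R213A 2, wild type 2, wild type 3, control 2 and control 3. Scaling may have differed between tables, so the main group differences below come from a fit with table as a term. Differences within a single table are given beside them, and levels across tables are descriptions. Recovered library totals ran from 15951927 to 18312806 reads. Length and base composition of the genes accounted for 37.5% of the variance of log2 expression differences in R213A 1, 31.0% in R213A 3, 32.6% in wild type 1, 13.8% in control 1 and 1.24% in control 2, each set against the mean of the other 4 libraries, which were close to each other. The tumour line was checked against its markers: KRT8, KRT18 and EPCAM were expressed, while the epithelial genes KRT19 and CDH1 reached at most 0.0717 and 0.136 FPKM. The mesenchymal genes VIM, CDH2 and ZEB1 averaged 138, 9.60 and 3.85 FPKM. None of 8 fibroblast, 4 immune and 4 endothelial markers averaged 1 FPKM.

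All 10 genes were expressed at a mean of at least 1 FPKM and stood among the 11193 genes tested. Their mean levels over the 9 libraries lay between 3.21 and 38.5 FPKM, from between 116 and 8964 reads per library. Within the 5-library table R213A 2, wild type 2, wild type 3 and control 3 were close to each other, and for each of the 10 genes the highest of these 4 libraries was 1.03 to 1.21 times the lowest. Values that stood farther away were in the 4-library table and, for some of the genes, in control 2. For TEAD1, TEAD2 and LATS1 control 2 lay within the range of these 4 libraries, at 0.981, 1.00 and 1.04 times their mean. Group means stood in the order control, wild type, R213A for YAP1, TEAD1, TEAD3, LATS1, STK3 and STK4. R213A had the highest mean for TEAD2, TEAD4 and NF2, and wild type for WWTR1. In 20 of 20 pairs of neighbouring group means the gap was smaller than the larger SD. R213A has more libraries in the 4-library table than the other groups, so its mean also carries the difference between tables. Every group has libraries of both tables, so the SDs carry that difference too and do not measure the spread within a table.

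**Figure D1:**
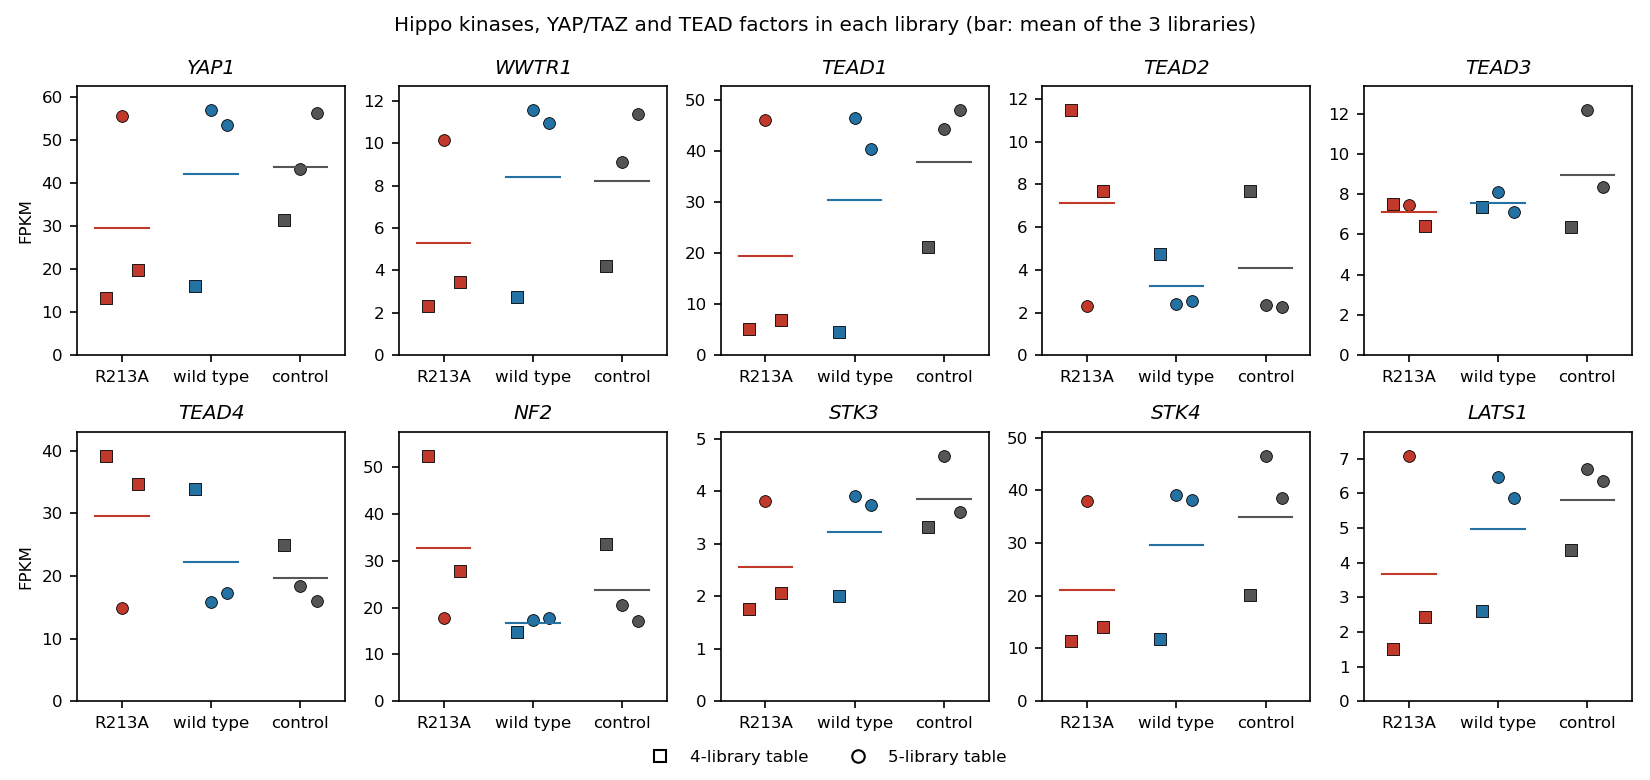
FPKM of each of the 10 genes (vertical axis, from 0) in every library, by group on the horizontal axis. Squares are libraries of the 4-library table, circles those of the 5-library table, and the bar is the mean of the 3 libraries of a group. For YAP1, WWTR1, TEAD1, LATS1, STK3 and STK4 the squares lie below the circles, for TEAD2 and TEAD4 above them.

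YAP1 (ENSG00000137693, hg38 chr11:102110461-102233423, plus strand) was among the most abundant of the 10 genes. It had 13.3, 55.6 and 19.8 FPKM in R213A 1 to 3, 16.1, 56.9 and 53.6 FPKM in wild type 1 to 3, and 31.6, 43.2 and 56.4 FPKM in control 1 to 3. The groups overlapped, and the libraries of the 4-library table were the low ones in each group. The means were 29.6 ± 22.8 FPKM for R213A, 42.2 ± 22.7 FPKM for wild type and 43.7 ± 12.4 FPKM for control (SD, n = 3 each). WWTR1 (ENSG00000018408, hg38 chr3:149517235-149736714, minus strand), which encodes TAZ, was lower than YAP1 in every library. It had 2.33, 10.2 and 3.44 FPKM in R213A 1 to 3, 2.74, 11.5 and 11 FPKM in wild type 1 to 3, and 4.21, 9.11 and 11.4 FPKM in control 1 to 3. The same libraries were low as for YAP1. The ratio of YAP1 to WWTR1 FPKM, in which any scaling of a whole library cancels, was 5.70 and 5.75 in R213A 1 and R213A 3 and 5.87 in wild type 1, against 7.50 in control 1. In the 5-library table it was 5.47 in R213A 2 and 4.93 and 4.89 in wild type 2 and wild type 3, against 4.74 and 4.96 in control 2 and control 3. Among the libraries of each table, that of highest ratio was control 1 in the 4-library table and R213A 2 in the 5-library table.

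TEAD factors bind DNA at the sequence GGAATG and its reverse complement CATTCC, and that hexamer was searched on both strands in RefSeq promoters (GRCh38.p14), which run from upstream of a gene's start to just after it. It was in 4928 of 35116 promoters, or 14.0%, and in 1 of the 7 promoters found for the 10 genes, that of YAP1. The YAP1 promoter is shown because the gene is the pathway's main effector and holds its match at position -162 from the start (chr11:102110197-102110496, plus strand, motif in capitals). A match is a description of the letters and not a measured site.
YAP1: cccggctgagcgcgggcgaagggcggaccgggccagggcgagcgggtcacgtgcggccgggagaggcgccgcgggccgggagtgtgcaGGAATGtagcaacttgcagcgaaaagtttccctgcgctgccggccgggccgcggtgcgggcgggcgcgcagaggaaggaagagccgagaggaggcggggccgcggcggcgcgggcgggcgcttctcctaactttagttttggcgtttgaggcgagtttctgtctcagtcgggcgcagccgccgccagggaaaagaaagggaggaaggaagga

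Among the 10 genes, the libraries stood farthest apart for TEAD1, by the ratio of the highest to the lowest library. TEAD1 (ENSG00000187079, hg38 chr11:12674591-12944483, plus strand) had 5.25, 46.0 and 7.0 FPKM in R213A 1 to 3, 4.56, 46.5 and 40.3 FPKM in wild type 1 to 3, and 21.3, 44.3 and 48.0 FPKM in control 1 to 3. R213A 1, R213A 3 and wild type 1 lay below control 1, the only control of their table, while in the 5-library table the groups overlapped. The highest library was 10.5 times the lowest for TEAD1, against 1.91 times (TEAD3) to 5.09 times (TEAD2) for the other 9 genes. TEAD4 (ENSG00000197905, hg38 chr12:2959330-3040673, plus strand) ran the other way across tables. It had 39.1, 14.8 and 34.6 FPKM in R213A 1 to 3, 33.8, 15.8 and 17.2 FPKM in wild type 1 to 3, and 24.9, 18.3 and 16.0 FPKM in control 1 to 3. Its high libraries were those of the 4-library table, with control 1 the lowest of them.

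TEAD2 (ENSG00000074219, hg38 chr19:49340595-49362457, minus strand), a family member known from early mouse embryos, was low in the 5-library table. It had 11.5, 2.28 and 7.70 FPKM in R213A 1 to 3, 4.72, 2.40 and 2.54 FPKM in wild type 1 to 3, and 7.68, 2.37 and 2.25 FPKM in control 1 to 3. Within the 4-library table wild type 1 was the low library and R213A 1 the high one. TEAD3 (ENSG00000007866, hg38 chr6:35473597-35497076, minus strand) was the steadiest of the 10 genes. It had 7.50, 7.48 and 6.44 FPKM in R213A 1 to 3, 7.39, 8.12 and 7.13 FPKM in wild type 1 to 3, and 6.36, 12.2 and 8.34 FPKM in control 1 to 3. Its high value in control 2 was 1.57 times the mean of the 4 close libraries, the largest such ratio among the 10 genes.

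As a share of the summed TEAD FPKM, TEAD1 made up 8.29% and 12.6% in R213A 1 and R213A 3 and 9.03% in wild type 1, against 35.4% in control 1. In the 5-library table it made up 65.2% in R213A 2 and 63.8% and 59.996% in wild type 2 and wild type 3, against 57.4% and 64.3% in control 2 and control 3. TEAD4 was thus the most abundant TEAD transcript in each library of the 4-library table and TEAD1 in each library of the 5-library table. TEAD1 has 10279 bases and a GC content of 41.3%, and TEAD4 has 2272 bases and a GC content of 60.4%. In a share the scaling of a whole library cancels, but an effect of length or base composition does not. The part of length and base composition in these shares was not tested. TEAD4 made up 61.8% and 62.1% in R213A 1 and R213A 3 and 67.0% in wild type 1, against 41.3% in control 1. The summed TEAD level varied less than its parts, between 50.5 and 77.2 FPKM over the 9 libraries.

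**Figure D2:**
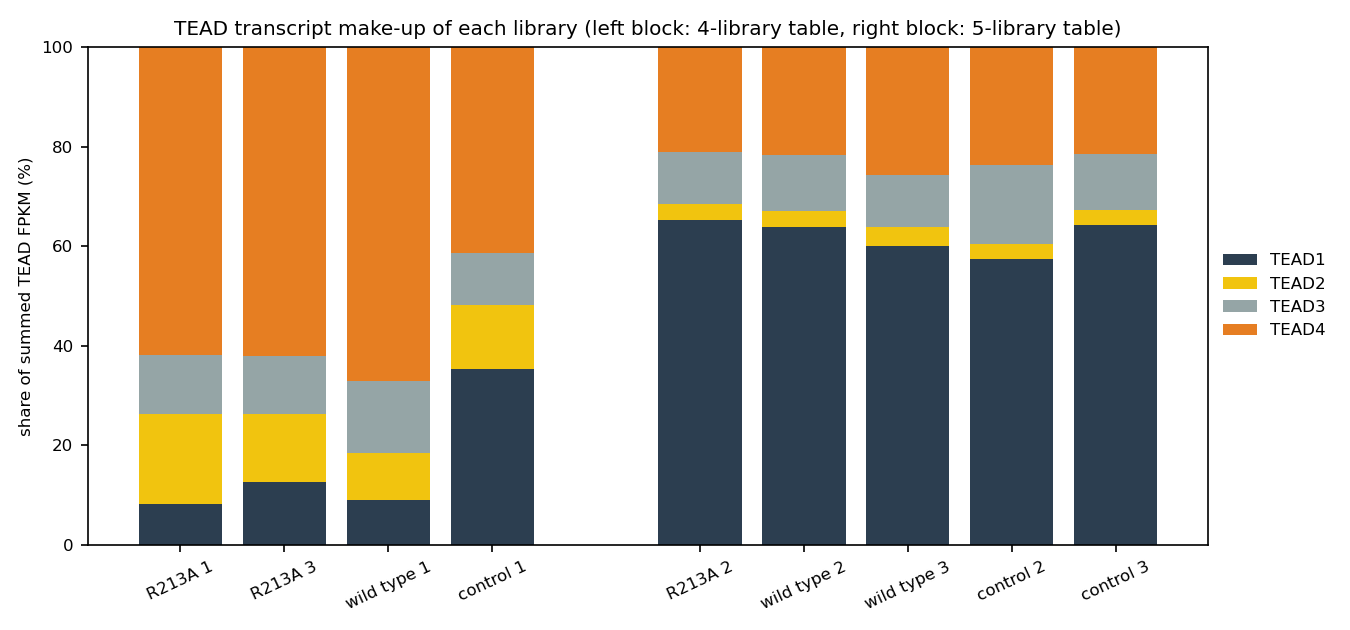
Share of the summed FPKM of TEAD1 to TEAD4 (vertical axis, percent) in each library, with the 4-library table in the left block and the 5-library table in the right block. TEAD1 takes 8.29% to 35.4% of the left bars and 57.4% to 65.2% of the right bars. The part of gene length and base composition in these shares was not tested.

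NF2 (ENSG00000186575, hg38 chr22:29603556-29698598, plus strand), the membrane-bound tumour suppressor merlin, had 52.3, 17.8 and 27.9 FPKM in R213A 1 to 3, 14.9, 17.3 and 17.7 FPKM in wild type 1 to 3, and 33.6, 20.6 and 17.1 FPKM in control 1 to 3. Wild type 1 was the low library of the 4-library table and R213A 1 the high one, while the 5-library table held only values from 17.1 to 20.6 FPKM. Within the 4-library table NF2 was the first or second of the 10 genes in both R213A libraries and in control 1. NF2 and TEAD2 shared their highest and their lowest library in that table.

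The MST kinases were unequal in level. STK4 (ENSG00000101109, hg38 chr20:44966474-45079959, plus strand) had 11.3, 37.9 and 14.0 FPKM in R213A 1 to 3, 11.8, 39.1 and 38.2 FPKM in wild type 1 to 3, and 20.1, 46.4 and 38.5 FPKM in control 1 to 3. STK3 (ENSG00000104375, hg38 chr8:98371228-98942827, minus strand) had 1.75, 3.82 and 2.07 FPKM in R213A 1 to 3, 2.01, 3.92 and 3.74 FPKM in wild type 1 to 3, and 3.31, 4.66 and 3.59 FPKM in control 1 to 3. For both genes control 2 was the highest library and the libraries of the 4-library table the lowest. STK3 FPKM was 0.0934 to 0.170 of STK4 FPKM over the 9 libraries.

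LATS1 (ENSG00000131023, hg38 chr6:149658153-149718256, minus strand), which phosphorylates YAP1 and TAZ, had 1.51, 7.07 and 2.43 FPKM in R213A 1 to 3, 2.60, 6.48 and 5.86 FPKM in wild type 1 to 3, and 4.37, 6.72 and 6.35 FPKM in control 1 to 3. Its paralog LATS2, itself a YAP1 target gene, had 4.45, 31.9 and 6.65 FPKM in R213A 1 to 3, 4.58, 33.9 and 32 FPKM in wild type 1 to 3, and 15.6, 35.5 and 32.7 FPKM in control 1 to 3. LATS2 was above LATS1 in every library. The ratio of LATS1 to LATS2 was 0.339 and 0.365 in R213A 1 and R213A 3 and 0.568 in wild type 1, against 0.279 in control 1. It was 0.222 in R213A 2 and 0.191 and 0.183 in wild type 2 and wild type 3, against 0.189 and 0.194 in control 2 and control 3. The strand setting of the counting is not given in the sources used here. Genes on the opposite strand overlap YAP1, WWTR1, TEAD1, TEAD2, LATS1 and STK3 in the annotation, and each of these overlapping genes was listed at no more than 0.452 FPKM in any library.

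The wild type CPXM2 matrix was set against the control matrix to ask whether the protein in the matrix goes with other transcript levels of the pathway. None of the 10 genes passed the test (limma on log2(FPKM + 1) with table as a term, Benjamini-Hochberg adjusted p from 0.757 to 0.915), and 0% of all 11193 genes did. At an unadjusted p under 0.05, 0 of the 10 genes passed, against 4.49% of all genes (503). Limma-voom on the recovered reads also called 0 of all genes, with 423 at an unadjusted p under 0.05. TEAD1 had the smallest p of the 10, with a difference of -0.73 ± 0.36 on the log2 scale (SE), a 95% interval from -1.53 to 0.08 and an unadjusted p of 0.0718 in limma. NF2 differed by -0.44 ± 0.31, STK4 by -0.32 ± 0.20, LATS1 by -0.24 ± 0.22, STK3 by -0.23 ± 0.17 and YAP1 by -0.20 ± 0.28. In all, 9 of 10 differences were below 0 and that of TEAD4 was 0.11 ± 0.20. The median of the 10 was -0.22, against -0.03 over all genes tested.

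The tables gave unlike values for this comparison. Within the 4-library table, where it sets wild type 1 against control 1, TEAD1 differed by -2.0, NF2 by -1.13, YAP1 by -0.93, STK4 by -0.72, TEAD2 by -0.60, LATS1 by -0.58, STK3 by -0.52 and WWTR1 by -0.48, while TEAD4 differed by 0.43 and TEAD3 by 0.19. TEAD1 and NF2 were at least 2-fold lower and none of the 10 at least 2-fold higher, against 8.84% of all genes lower and 7.79% higher by that much. Within the 5-library table the 10 differences ran from -0.36 (TEAD3) to 0.16 (YAP1), and without control 2 none was larger than 0.14 in size. Only 5 of the 10 genes had the same sign in both tables. Leaving out control 1 left TEAD1 at -0.13, and leaving out wild type 1 left it at -0.36.

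R213A was set against the same control libraries, so both comparisons with control share them. None of the 10 genes passed (limma adjusted p from 0.690 to 0.833, with 0% of all genes passing), and at an unadjusted p under 0.05, 0 of 10 passed, against 3.05% of all genes (341). Limma-voom called 0 of all genes, with 214 at an unadjusted p under 0.05. TEAD1 again had the smallest p, with -0.71 ± 0.37, a 95% interval from -1.55 to 0.13 and an unadjusted p of 0.0887 in limma. LATS1 differed by -0.38 ± 0.23, STK4 by -0.35 ± 0.20, YAP1 by -0.31 ± 0.29 and STK3 by -0.30 ± 0.18, and 7 of 10 differences were below 0. TEAD2, NF2 and TEAD4 had positive differences of 0.22, 0.18 and 0.16, none larger than its SE. The median of the 10 was -0.24, against -0.02 over all genes.

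Within the 4-library table, where R213A 1 and R213A 3 stand against control 1, TEAD1 differed by -1.66, YAP1 by -0.92, LATS1 by -0.87, STK4 by -0.63, STK3 by -0.57 and WWTR1 by -0.44. TEAD4, TEAD2, NF2 and TEAD3 differed by 0.55, 0.26, 0.18 and 0.11. TEAD1 was the 1 gene at least 2-fold lower and none was 2-fold higher, against 3.18% of all genes lower and 5.22% higher. In the 5-library table the differences ran from -0.39 (TEAD3) to 0.17 (YAP1), and without control 2 none exceeded 0.15 in size. Without control 1 the TEAD1 difference was 0.08, the opposite sign, so its negative value rested on that library.

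The mutant was set against the wild type protein to ask whether the R213A change goes with other transcript levels. None of the 10 genes passed (limma adjusted p from 0.996 to 0.999, with 0% of all genes passing), and at an unadjusted p under 0.05, 0 of 10 passed, against 1.05% of all genes (117). Limma-voom called 0 of all genes here as well, with 101 at an unadjusted p under 0.05. NF2 had the smallest p, with 0.62 ± 0.32, a 95% interval from -0.10 to 1.34 and an unadjusted p of 0.0838 in limma. TEAD2 differed by 0.37 ± 0.23, and TEAD1 by 0.02 ± 0.37 with a 95% interval from -0.82 to 0.86. Of the 10 differences 5 were above 0 and 5 below, with a median of -0.01 against 0.01 over all genes. In the 4-library table NF2 differed by 1.31 and TEAD2 by 0.86, and NF2 was the 1 gene at least 2-fold higher, with none 2-fold lower, against 4.07% of all genes higher and 2.44% lower. In the 5-library table NF2 differed by 0.02 and TEAD2 by -0.08, and the 10 differences ran from -0.15 to 0.17. Without wild type 1 the NF2 difference was 0.11, and without R213A 2 it was 0.97.

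**Figure D3:**
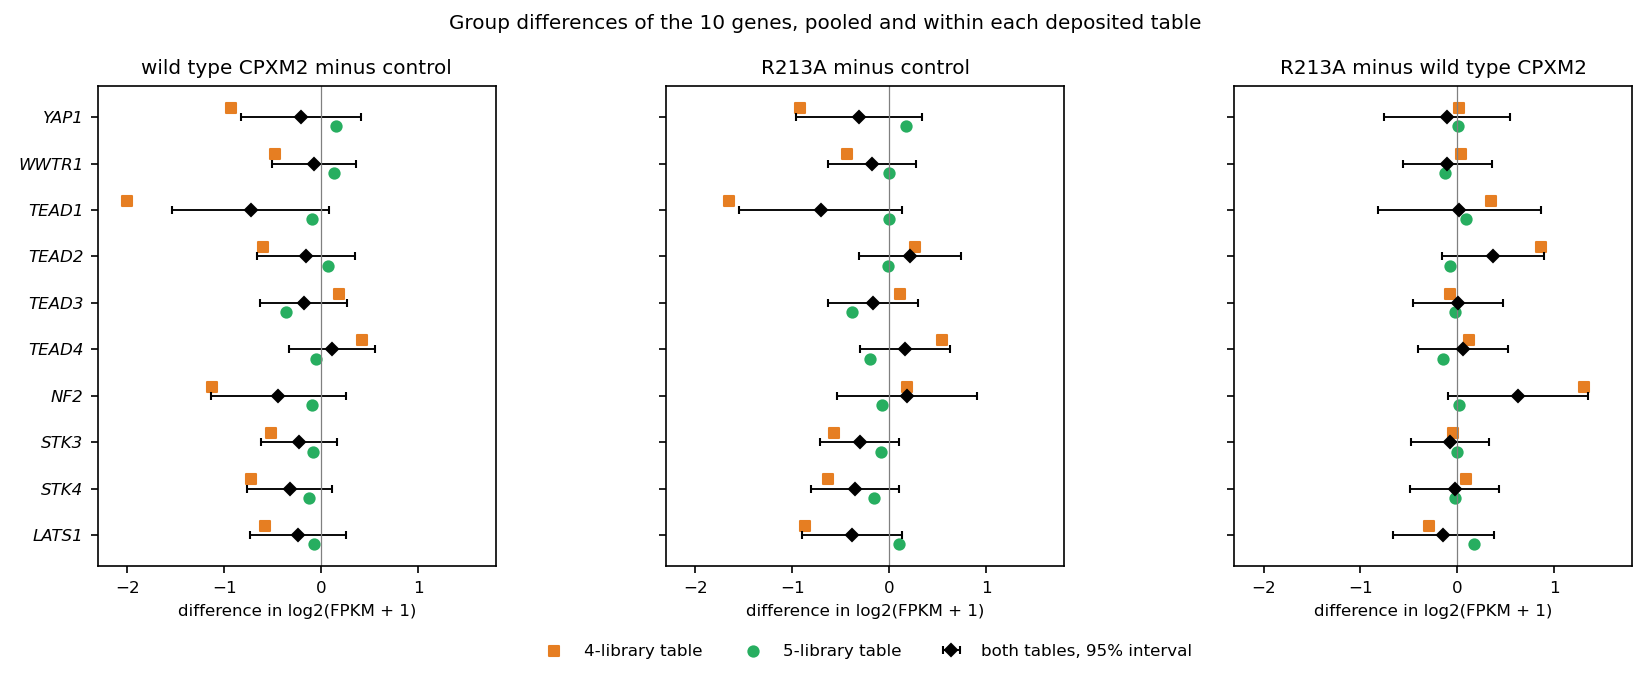
Differences in log2(FPKM + 1) (horizontal axis) for each of the 10 genes in the 3 comparisons. Diamonds with 95% intervals come from the fit over both tables, squares from the 4-library table alone and circles from the 5-library table alone. All 30 intervals include 0, the circles lie within 0.39 of 0, and the square of TEAD1 lies at -2.0 and -1.66 in the comparisons with control.

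The 4-library table alone gave other calls. A limma fit on it has 1 residual degree of freedom, which comes from R213A 1 and R213A 3, and assumes that the lone wild type and control libraries vary as these do. In that fit TEAD1 was the 1 of 10 genes that passed for wild type against control (adjusted p of 0.00321), where 6.92% of all genes passed, and for R213A against control (adjusted p of 0.0189), where 1.64% did. For R213A against wild type 0 of 10 passed in this limma fit, where 2.92% of all genes did, and 2 of the 10, NF2 and TEAD2, had an unadjusted p under 0.05 (0.00868 and 0.0494), as did 10.4% of all genes (1166). TEAD1 stood low among genes of its table: 117 of 11193 genes had a difference between wild type 1 and control 1 as low or lower, and 30 genes had one between R213A and control 1. Of the 1537 genes longer than 9000 bases, 7 and 1 were as low.

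Differences in the 4-library table moved with gene length over all genes. For R213A against control their median was 0.44 among genes of up to 2000 bases and -0.39 among genes over 9000 bases, and for wild type against control it was 0.29 and -0.34. TEAD1, STK3, STK4, LATS1, WWTR1, NF2 and YAP1 have lengths of 6296 to 12597 bases, whereas TEAD2, TEAD3 and TEAD4 have 2272 to 3046. The GC content is 58.4% to 60.4% in TEAD2, TEAD3 and TEAD4, 56.0% in NF2 and 37.4% to 43.5% in the remaining genes. Length and GC content thus largely go together in these genes, and the part of each was not tested. Across the 10 genes the Pearson correlation of log2 length with the 4-library difference was -0.76 for R213A against control, -0.65 for wild type against control and -0.16 for R213A against wild type. Over all 11193 genes it was -0.31, -0.18 and -0.08 in the same order. In the 5-library table the correlation across the 10 genes had the opposite sign, at 0.46, 0.14 and 0.53. Over all 11193 genes it was -0.07, -0.14 and 0.10 there, so both comparisons with control kept the negative sign. These are descriptions across genes, which share the libraries of a table. With length and GC content removed, the TEAD1 difference in the 4-library table was -1.60 for wild type against control (limma adjusted p of 0.012) and -1.15 for R213A against control (limma adjusted p of 0.122). STK3, LATS1 and WWTR1 were then at -0.03, -0.15 and -0.08 for wild type against control, YAP1 at -0.63 and STK4 at -0.38, while NF2 at -1.22 and TEAD2 at -1.02 were farther from 0 than before. TEAD3 and TEAD4 changed sign in both comparisons with control, to -0.25 and -0.10 for wild type and to -0.43 and -0.10 for R213A. TEAD2, WWTR1 and STK3 changed sign for R213A against control, to -0.25, 0.06 and 0.04.

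Marker sums also differed between these libraries. The summed FPKM of 4 proliferation genes was 238 in R213A 1, 229 in R213A 3 and 71.8 in wild type 1, against 332 in control 1, and lay between 157 and 172 in the 5-library table. The summed FPKM of 7 mitochondrial transcripts was 19156 in R213A 1, 15690 in R213A 3 and 11444 in wild type 1, against 17918 in control 1, and lay between 9826 and 15732 in the 5-library table, a range that overlaps the first. The 8 fibroblast markers summed to 0.0548 to 0.124 FPKM in the 4-library table and to 0.414 to 0.915 FPKM in the 5-library table. Most of the latter sums was COL3A1, at 0.331 to 0.828 FPKM, while DCN and LUM had 0 FPKM in those libraries. All these values are near the floor. The part of length, base composition, proliferation or RNA quality in the differences of the 10 genes was not tested. In bulk RNA, fewer cells of a kind and less RNA per cell cannot be told apart.

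**Figure D4:**
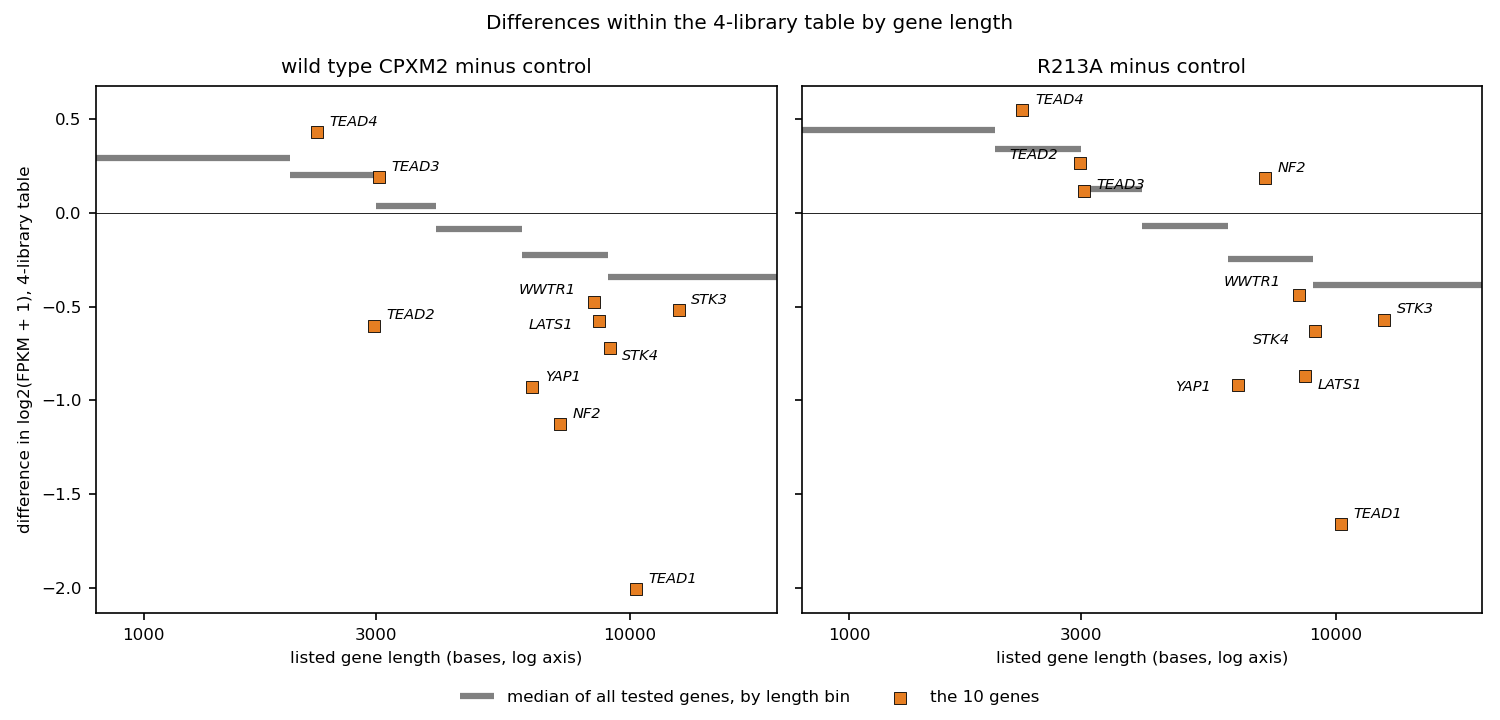
Difference in log2(FPKM + 1) within the 4-library table (vertical axis) against the listed gene length in bases (horizontal log axis) for wild type CPXM2 against control and R213A against control. Grey bars are medians of all tested genes in 6 length bins, squares are the 10 genes. The grey bars go down with length, and TEAD1 lies below the bar of its bin in both panels.

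Members of the group also varied together. On values centred within tables over the 9 libraries, Pearson's r was 0.96 for YAP1 with WWTR1, 0.97 for STK3 with STK4, 0.97 for NF2 with TEAD2 and 0.89 for YAP1 with TEAD1, whereas it was -0.85 for TEAD1 with TEAD4 and -0.94 for YAP1 with TEAD4. Other pairs were near 0, such as YAP1 with NF2 at -0.10, STK3 with NF2 at 0.05 and TEAD2 with TEAD3 at -0.01. These are descriptions that rest mainly on the 4-library table, and genes outside the group reached values as high. Among 11192 other genes, the most alike in pattern by the same measure were PPP3CA, BMI1 and PPP4R2 for YAP1 (r of 0.994, 0.994 and 0.993). For TEAD1 they were ADAM10, LRRC58 and PKN2 (0.998, 0.997 and 0.994), the first of which, at 16168 bases, is longer than TEAD1. For TEAD4 they were the pseudogenes RPS2P46 and RPL4P4 and the actin-binding gene TMSB4X (0.988, 0.985 and 0.980), which are shorter than TEAD4. Pseudogenes share reads with their parent genes, so their own levels are uncertain.

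The rest of the pathway was read from lists of 65 further genes, of which 55 were measured, and 22 target genes of YAP1 and TAZ, of which 18 were measured. None of them passed the limma test in any of the 3 comparisons. At an unadjusted p under 0.05, 2 of the 55 pathway genes passed for wild type against control, 1 for R213A against control and 0 for R213A against wild type, against 4.49%, 3.05% and 1.05% of all genes. These counts do not set the pathway genes apart from the rest. The 2 were LIMD1, an inhibitor of LATS, at -0.56 ± 0.20, and the giant cadherin FAT1 at -0.68 ± 0.29, and the 1 was the phosphatase scaffold STRN at -0.55 ± 0.21. LATS2, the scaffold SAV1 and the LATS cofactors MOB1A and MOB1B lay below 0 in 4 of 4 cases against control, with medians of -0.35 for wild type and -0.29 for R213A. In the 4-library table these medians were -0.91 and -0.71, and in the 5-library table -0.04 and -0.04. The 13 measured junction and membrane regulators were below 0 in 13 of 13 cases in both comparisons with control, with medians of -0.40 for wild type and -0.34 for R213A and 5-library medians of -0.09 and -0.02. Without control 2 the 5-library medians were -0.04 and 0.04. These regulators have 5984 to 18756 bases. All tested genes of 6000 to 9000 bases had 4-library medians of -0.23 and -0.24, and those over 9000 bases of -0.34 and -0.39. The part of length in these counts was not tested. Of 8 measured TAO and MAP4 kinases, which phosphorylate MST or LATS kinases, 7 were below 0 for wild type and 6 for R213A against control. Of 11 measured subunits of the STRIPAK phosphatase, which dephosphorylates MST kinases, 9 and 10 were below 0. Of 12 measured genes of YAP1 turnover and cytoplasmic retention, 7 and 8 were below 0, with medians of -0.18 and -0.12.

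Over all 55 measured pathway genes, 44 were below 0 for wild type against control and 46 for R213A against control, which share their controls. The medians were -0.20 and -0.24, close to those of the 10 genes, and 31 of 55 were below 0 for R213A against wild type, with a median of 0.00. The median of all genes tested was -0.03, -0.02 and 0.01 in these comparisons. No count below 0 over all genes stands beside the counts of signs for the 10 genes or for any list. VGLL4, which competes with YAP1 for TEAD, had 0.968, 5.97 and 1.44 FPKM in R213A 1 to 3, 2.27, 6.68 and 7.05 FPKM in wild type 1 to 3, and 2.36, 4.54 and 7.25 FPKM in control 1 to 3. Its libraries of the 4-library table were low in every group, as for YAP1.

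Transcripts that report YAP1 and TAZ activity were examined beside their regulators. The list was written with results of these data known, and LATS2, AMOTL2 and PTPN14 stand in it and among the pathway genes. The promoters of CCN2, a secreted matrix protein, and ANKRD1, a nuclear ankyrin repeat protein, are shown because both genes are widely used readouts and their promoters hold the TEAD hexamer, as did 7 of the 16 promoters found for the 22 targets. The CCN2 window is chr6:131951323-131951622 on the minus strand, with matches at -169, -104 and -95 from the start, and the ANKRD1 window is chr10:90921038-90921337 on the minus strand, with matches at -220 and -128 (RefSeq, GRCh38.p14, motif in capitals).
CCN2: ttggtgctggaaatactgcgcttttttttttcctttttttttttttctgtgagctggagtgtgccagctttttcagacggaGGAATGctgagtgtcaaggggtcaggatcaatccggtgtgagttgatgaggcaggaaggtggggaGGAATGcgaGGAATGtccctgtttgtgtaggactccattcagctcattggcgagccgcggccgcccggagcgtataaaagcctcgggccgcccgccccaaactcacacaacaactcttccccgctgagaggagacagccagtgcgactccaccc
ANKRD1: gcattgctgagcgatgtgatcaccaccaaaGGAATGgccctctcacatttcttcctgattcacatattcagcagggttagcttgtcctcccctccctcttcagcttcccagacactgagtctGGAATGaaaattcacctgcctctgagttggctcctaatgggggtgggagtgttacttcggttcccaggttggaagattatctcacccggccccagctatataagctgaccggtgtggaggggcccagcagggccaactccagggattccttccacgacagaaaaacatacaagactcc

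ANKRD1 had 41.8, 69.5 and 42.1 FPKM in R213A 1 to 3, 15.1, 70.2 and 75.0 FPKM in wild type 1 to 3, and 67.8, 86.6 and 71.4 FPKM in control 1 to 3. CCN1, a secreted matrix protein, had 339, 788 and 301 FPKM in R213A 1 to 3, 66.6, 816 and 836 FPKM in wild type 1 to 3, and 434, 1325 and 798 FPKM in control 1 to 3. For both genes wild type 1 was the lowest library by far and control 2 the highest. CCN2 went another way in the 4-library table, with 148 and 225 FPKM in R213A 1 and R213A 3 and 291 FPKM in wild type 1, against 174 FPKM in control 1. In the 5-library table CCN2 had 385 FPKM in R213A 2 and 378 and 410 FPKM in wild type 2 and wild type 3, against 1093 and 367 FPKM in control 2 and control 3. ANKRD1 and CCN2, whose promoters both hold the hexamer, thus lay on opposite sides of control 1 in wild type 1.

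The 18 measured targets were below 0 in 17 of 18 cases for wild type against control and in 17 of 18 for R213A against control, with medians of -0.47 and -0.19. For R213A against wild type 12 of 18 were above 0, with a median of 0.13. In the 4-library table the 3 medians were -1.07, -0.50 and 0.49, and in the 5-library table -0.04, -0.02 and 0.02. Over all genes tested they were -0.07, -0.04 and 0.03 in the 4-library table and -0.01, -0.02 and -0.01 in the 5-library table. At an unadjusted p under 0.05, 2 of the 18 passed in limma for wild type against control, CCN1 at -1.11 ± 0.48 and the kinase NUAK2 at -0.65 ± 0.25, and 0 did in the other comparisons. Over all genes 4.49% passed at that level for wild type against control.

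**Figure D5:**
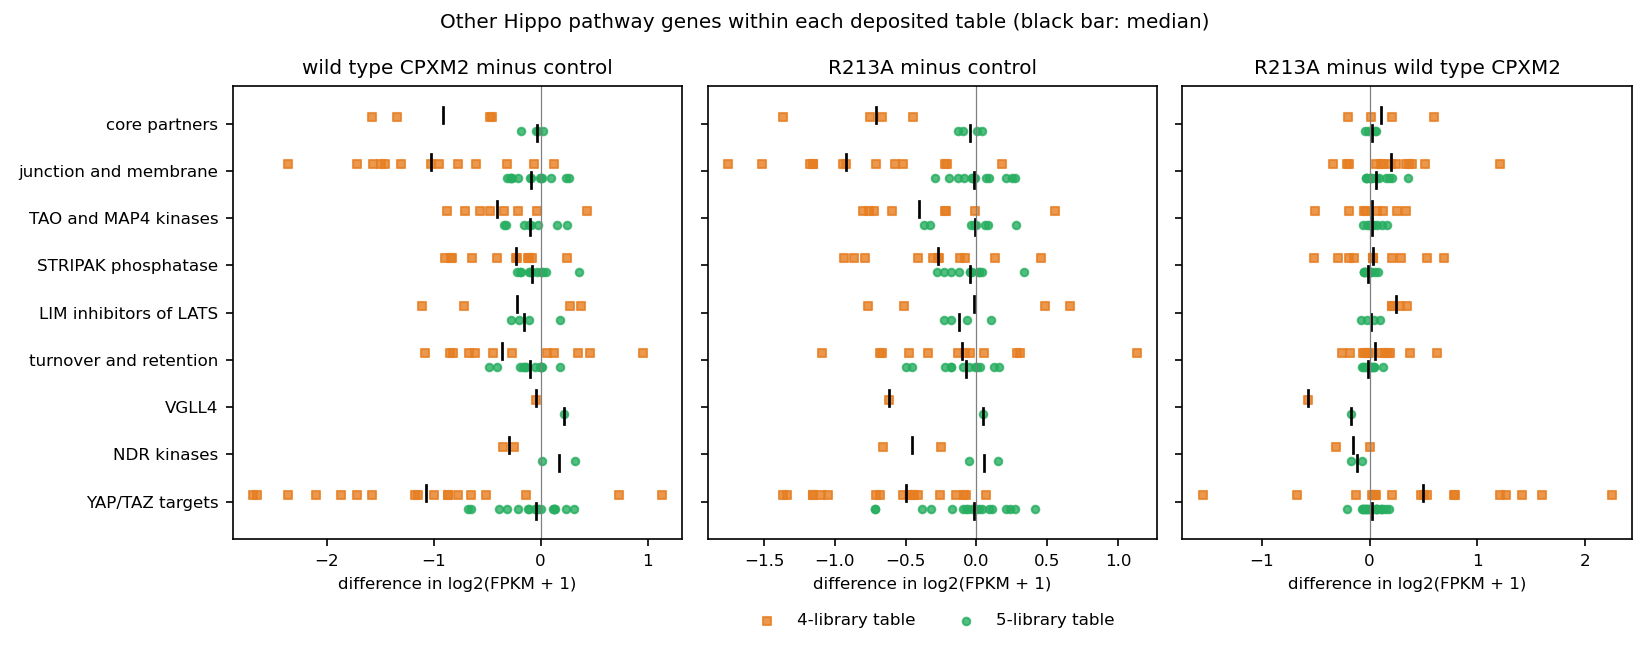
Differences in log2(FPKM + 1) (horizontal axis) of the other Hippo pathway genes and of YAP1 and TAZ targets, by list (rows), in the 3 comparisons. Squares are the 4-library table, circles the 5-library table, and the black bar is the median of a list in a table. The squares of the targets have medians of -1.07, -0.50 and 0.49, and the circles of -0.04, -0.02 and 0.02.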

How the data were processed

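Values were the authors' deposited FPKM, per the file headers, computed per gene from TruSeq stranded mRNA libraries made with about 500 ng of total RNA, per the labels' protocols. The submitters' processing notes name hg38 and bcl2fastq, and no aligner, counter or annotation release is given in the sources used here. Reads recovered as FPKM times gene length were whole for 100% of nonzero values (tolerance 0.01), with a library scaling of 0.850 to 1.09 of the recovered totals. The lowest count behind a value of the 10 genes, 116 reads (TEAD2 in control 2), gives an exact 95% Poisson interval of 1.96 to 2.84 FPKM, for counting error only.

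The 11193 genes that averaged 1 FPKM or more were compared on log2(FPKM + 1) with limma 3.58.1 (R 4.3.3), trend on, group and table as terms, all 9 libraries, and Benjamini-Hochberg adjustment at 0.05. Such differences understate those of low genes. Symbols matched 58207 identifiers. GC content was that of the longest GENCODE 29 transcript. The 10 genes, the lists and the naming rule (the 10 genes, listed pathway genes of smallest p, and the 3 genes most alike by Pearson correlation) were chosen with earlier results of these data known, and FAT1, LIMD1, STRN, ANKRD1, CCN1, CCN2, NUAK2, LATS2 and VGLL4 were picked from the lists with values in view. The fit was tested on simulated data with errors independent between genes. That test therefore does not cover shifts that many genes of a library share.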

Additional observations from a re-analysis of the deposited data

How the results depend on the processing

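No gene of the 11193 passed in any comparison with another pseudocount, a minimum of 5 FPKM, other scalings, no table term, no trend, recovered reads, length and GC content removed, the 5-library table alone, only the groups compared, or any library left out (0 genes each). Without a filter 1 gene passed for wild type against control and 1 for R213A against control. The 4-library table alone gave 775 genes for wild type against control, 184 for R213A against control and 327 for R213A against wild type, and in the same order 847, 47 and 401 with length and GC content removed. The 5-library table without control 2, chosen after seeing the data as were the corrected single-table fits, gave 14, 16 and 0. At an unadjusted p under 0.05, leaving out 1 library gave 73 to 1378, 99 to 1123 and 39 to 774 genes, and the cause was not tested.

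With group means removed, same-numbered libraries that share a table correlated at 0.33 to 0.84. R213A 3 lies in another table than wild type 3 and control 3, and correlated with them at -0.70 and -0.65. For same-numbered libraries that share a table, pairing by replicate number and sharing of a table cannot be told apart. The pairs across tables all hold R213A 3, and the cause of their negative sign was not tested. With a replicate block 0 genes passed, 285, 632 and 125 had an unadjusted p under 0.05, and TEAD1 was at -0.73 for wild type and -0.77 for R213A against control.

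Of 771 alternative values of the 30 differences, 104 changed sign, all between uncalled values. NF2 in R213A against wild type, STK4 in R213A against control and TEAD1 in wild type against control kept their sign throughout. Median 95% intervals, which are not adjusted for the number of genes, reached 0.48 to 0.50 to either side at 3 libraries a group. Calls used p adjusted over 11193 genes, so that size is not the limit of detection. Typical differences under it were not detectable, and larger ones also went uncalled. For wild type against control, TEAD1 at -0.73 and CCN1 at -1.11 each had a limma adjusted p of 0.757.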
